A study of Mus musculus with 24 samples.

Results

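Mast cell genes are here 10 genes whose products mark or arm mast cells: the IgE receptor subunits Fcer1a and Ms4a2, the stem cell factor receptor Kit, carboxypeptidase A3 (Cpa3), the tryptase Tpsb2, the chymases Mcpt1, Mcpt2, Mcpt4 and Cma1, and the histamine-forming enzyme Hdc. They were listed by name, with earlier results of these data known, and every non-control probe carrying one of the names was taken. This gave 10 of the 27589 genes named on the array and 11 of its 55681 distinct probes, 1 for each gene and 2 for Tpsb2. Adrenal glands of C57BL/6 mice were profiled on 24 one-colour arrays in 8 groups of 3. Male glands came from WT or Kcnk3 null mice after a sham procedure or castration, and female glands from WT or Kcnk3 null mice after a sham procedure or testosterone. Kcnk3 encodes a background potassium channel of the adrenal cortex. The labels give the genotype only as Kcnk3 null, and neither ages nor the testosterone dose. The labels name 3 samples per group without saying that each came from its own animal, so the p-values measure the spread between these samples, part of which may be technical. The question put to the genes was whether mast cell transcripts rise in null glands where androgen is low, which means sham females and castrated males, as against sham males and females given testosterone.

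Mast cells are tissue-resident immune cells that grow under stem cell factor acting on Kit and are armed through the high-affinity IgE receptor. Their granules store histamine together with tryptase, chymases and carboxypeptidase A3, which are released when the receptor is cross-linked. In the adrenal gland they lie mainly in the capsule and the outer cortex, and their mediators, serotonin among them, can act on the steroid-producing cells nearby. In whole glands, fewer cells of a type and less RNA per cell cannot be told apart.

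Levels are given as a percent of the 75th percentile of each array's signal, which makes arrays comparable but does not make probes of different genes comparable. Differences are on the log2 scale with their standard error (SE), from limma with Benjamini-Hochberg adjustment over all 31046 features tested, and a gene was called at an adjusted p under 0.05. Of the 10 genes, 8 passed the filter, which asked for signal well above background on at least 3 of 24 arrays. Mcpt4, Cpa3, Kit, Hdc and Tpsb2 probe 1 were above background on all 24 arrays, Tpsb2 probe 2 on 20, Cma1 on 14, Fcer1a on 10 and Mcpt2 on 7. Ms4a2, above background only on male WT sham array 2, and Mcpt1, on 0 arrays, were not tested. Because Fcer1a, Cma1 and Mcpt2 passed through the groups where they were high, the counts below are set against all 10 genes and against the share of all features called.

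Some arrays carried signal that goes against their labels. In 9 arrays, Xist in arrays labelled male or the Y-linked genes Ddx3y and Eif2s3y in arrays labelled female reached at least 10% of the level in arrays of the other sex. These were female WT sham arrays 2 and 3, all 3 female WT testosterone arrays, male null sham arrays 1 and 2, and male null castrated arrays 1 and 2, the last with 17.4% and 58.0%. Under that cut, Xist was still well above background in male null sham array 3 (6.08%) and male null castrated array 3 (4.15%). It was not in any male WT array. Ddx3y and Eif2s3y were well above background in female WT sham array 1, also under the cut. Leaving out the 9 arrays thus does not leave null male arrays free of Xist signal. Kcnk3 read 5.63% to 69.0% of the WT sham level of the same sex in the null arrays, with 34.6% to 69.0% in null sham males. Abhd1, a gene at 55.5% to 114% of its castrated null mean in every null array, read 20.8% to 40.5% of it in the female WT testosterone arrays, 20.1% and 19.3% in male WT castrated arrays 2 and 3, and at most 8.32% in the other WT arrays. Groups are named as labelled, and what these signals add to each mast cell result was not tested beyond the values given with it. RNA integrity numbers ran from 3 to 9, with 3 for female WT sham array 3 and female WT testosterone array 3. The liver gene Alb read 31214% in female null testosterone array 1 and 16632% in male WT sham array 3, against at most 238% elsewhere. Its part in the results was not tested beyond a fit without these arrays.

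Sequence just upstream of the genes is shown for the 4 members called higher in null glands of the low-androgen groups, and for Mcpt1, a close relative of Mcpt4 that gave no signal. The stretches are the 250 bases before the RefSeq transcript start (build GRCm38.p6), 5′ to 3′ on the gene's strand, for Fcer1a (chr1:173227230-173227479, minus strand), Cma1 (chr14:55944676-55944925, minus), Mcpt4 (chr14:56062311-56062560, minus), Mcpt1 (chr14:56017714-56017963, plus) and Cpa3 (chr3:20242182-20242431, minus). Capitals mark GATAA or, for the opposite strand, TTATC, the core letters of the motif read by GATA factors, the family of the mast cell regulators Gata1 and Gata2.
Fcer1a: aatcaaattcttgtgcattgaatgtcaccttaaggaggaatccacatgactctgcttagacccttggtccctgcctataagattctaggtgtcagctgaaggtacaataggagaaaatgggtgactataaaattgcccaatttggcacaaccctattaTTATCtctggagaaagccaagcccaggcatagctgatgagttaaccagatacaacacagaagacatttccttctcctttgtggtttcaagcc
Cma1: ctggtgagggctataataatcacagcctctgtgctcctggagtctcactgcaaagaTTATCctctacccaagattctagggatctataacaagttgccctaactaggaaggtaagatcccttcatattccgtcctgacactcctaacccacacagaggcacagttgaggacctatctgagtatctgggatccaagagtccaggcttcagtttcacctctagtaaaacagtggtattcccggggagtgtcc
Mcpt4: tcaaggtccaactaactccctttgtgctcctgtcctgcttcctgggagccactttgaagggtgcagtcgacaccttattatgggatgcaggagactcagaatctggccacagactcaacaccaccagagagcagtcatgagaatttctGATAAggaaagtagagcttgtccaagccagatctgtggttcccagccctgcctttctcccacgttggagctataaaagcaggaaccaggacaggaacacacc
Mcpt1: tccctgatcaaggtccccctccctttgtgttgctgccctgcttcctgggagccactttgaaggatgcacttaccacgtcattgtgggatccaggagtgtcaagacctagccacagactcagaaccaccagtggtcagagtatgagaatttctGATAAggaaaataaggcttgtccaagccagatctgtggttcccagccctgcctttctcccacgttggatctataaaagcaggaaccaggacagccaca
Cpa3: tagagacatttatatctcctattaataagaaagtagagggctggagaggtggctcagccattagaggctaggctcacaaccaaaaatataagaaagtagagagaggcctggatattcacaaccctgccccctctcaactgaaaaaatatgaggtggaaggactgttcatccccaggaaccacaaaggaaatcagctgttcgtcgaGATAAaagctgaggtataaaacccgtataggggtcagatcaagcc

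Each of these 5 stretches held the letters 1 time, starting 92, 194, 102, 98 and 45 bases before the start of Fcer1a, Cma1, Mcpt4, Mcpt1 and Cpa3. Of the 8 members with an entry in the promoter table, 6 held it, Ms4a2 being the other, and the stretches of Kit and Hdc did not. Among all 32851 promoters of the same length, 22.6% held the letters on either strand. Mcpt4 and Mcpt1 were 81.9% identical over the aligned stretch, while Mcpt4 and Cma1, both chymase genes of the same chromosome 14 cluster, were 54.1% identical. A match is a string of letters and not a shown binding site. Tpsb2 and Mcpt2 are named without a promoter. The array's own 60-base probes share little sequence: the longest run shared by any pair of the 11 was 10 bases, between Mcpt1 and Mcpt2. On mm9, the build of the probe design, the probes lie at chr1:175151438-175151497 (Fcer1a), chr19:11691701-11691760 (Ms4a2), chr14:56561491-56562550 across a splice junction (Cma1), chr14:56638928-56638987 (Mcpt1), chr14:56663261-56663320 (Mcpt2), chr14:56678589-56678648 (Mcpt4), chr3:20115674-20115733 (Cpa3), chr17:25504819-25504878 and chr17:25504493-25504552 (Tpsb2 probes 1 and 2), chr5:76052394-76052453 (Kit) and chr2:126419516-126419575 (Hdc). Kit shares chromosome 5 with Kcnk3.

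**Figure D1:**
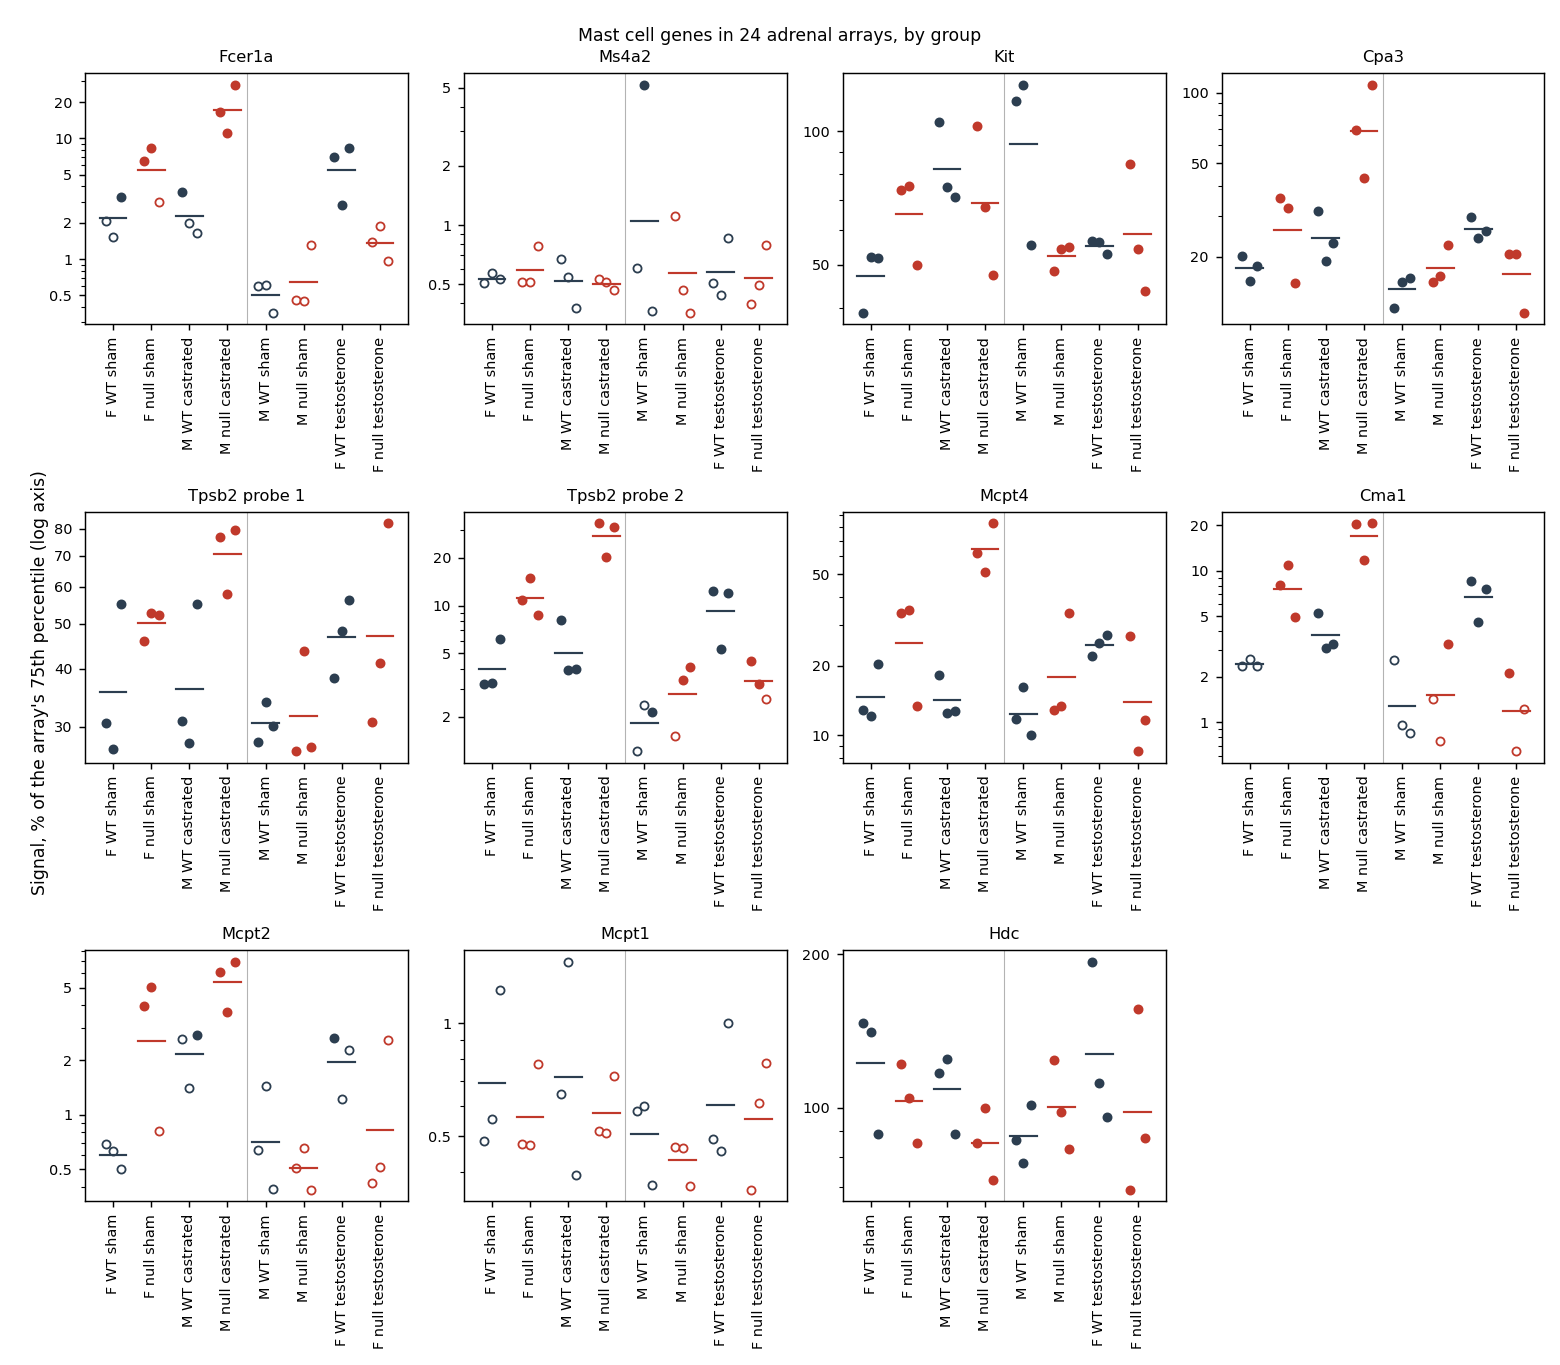
Signal of the 11 probes of the 10 mast cell genes on 24 arrays, as a percent of each array's 75th percentile on log axes, by labelled group; red is null, dark is WT, filled points are well above background, open points are not, and bars are group means of the log2 values. Fcer1a, Cpa3, Tpsb2 probe 2, Mcpt4 and Cma1 were highest in all 3 castrated null arrays, while Kit and Hdc were not.

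By mean log2 level, castrated null males ranked first of the 8 groups for Fcer1a, Cpa3, Tpsb2 probe 2, Mcpt4 and Cma1, and in each of the 5 their lowest array lay above the highest array of the next group. Below the castrated null males the groups ran into each other. For Cpa3, every other neighbouring pair of groups overlapped, from female WT testosterone (26.4% ± 2.77, SD, n = 3) down to male WT sham (14.7% ± 2.26, SD, n = 3). The same held for Fcer1a below female WT testosterone (6.07% ± 2.91, SD, n = 3), with male WT sham again last at 0.522% ± 0.142 (SD, n = 3). For Cma1, male WT castrated arrays also stood clear above female WT sham arrays.

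Null against WT in castrated males asked what loss of the channel does in male glands without testicular androgen. Cpa3 was 2.87-fold, Mcpt4 4.5-fold and Tpsb2 probe 2 5.48-fold higher in null glands, and Fcer1a passed too, whereas Kit and Hdc did not pass. In counts, 3 of the 10 genes were called higher and 0 lower, where 0.699% of all features were called and 0.416% were called higher. The median log2 difference of the 10 genes was 1.14, against -0.01 for all features. A different measure was taken within slides, the median of the 10 centred genes on each array. Null and WT arrays differed in it by 0.917, 0.81 and 1.62 within slides 1, 2 and 3.

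Fcer1a, the IgE-binding subunit of the high-affinity receptor, had levels of 16.5%, 10.99% and 27.9% in castrated null arrays 1 to 3 and 3.63%, 2.00% and 1.63% in castrated WT arrays, of which only the first was above background. All null arrays were above all WT arrays, and the fitted log2 difference was 2.91 (SE 0.52, adjusted p = 0.00811), with 1 of 3 WT arrays measured above background. Ms4a2, the receptor's beta chain, read 0.534%, 0.512% and 0.467% in the null arrays and 0.378% to 0.675% in the WT arrays, all not well above background.

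Cpa3, the granule carboxypeptidase that trims peptides after chymase has acted, had levels of 69.5%, 43.2% and 108.2% in null arrays and 31.2%, 19.1% and 23.0% in WT arrays, with no overlap. Its log2 difference was 1.52 (SE 0.33, adjusted p = 0.0366). Mcpt4, the chymase of connective tissue mast cells, stood at 61.9%, 51.3% and 83.3% against 18.2%, 12.5% and 12.7%. Every null array was thus above every WT array by a wide gap, and the log2 difference was 2.17 (SE 0.44, adjusted p = 0.0199).

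Tpsb2, a tryptase stored on heparin in the granule, was read by 2 probes that moved in the same direction but not equally. Probe 2 had levels of 33.1%, 20.3% and 31.2% in null arrays and 8.10%, 3.95% and 3.98% in WT arrays. Tested with every probe as a feature (36830 features, 0.66% called), it differed by 2.46 (SE 0.43, adjusted p = 0.00719). Probe 1, the brighter one and therefore the one used for the gene, read 76.8%, 58.1% and 79.4% against 30.9%, 27.8% and 55.1%, without overlap but also without passing (0.97, SE 0.34, adjusted p = 0.364).

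Cma1 had levels of 20.3%, 11.8% and 20.7% in null arrays and 5.24%, 3.09% and 3.29% in WT arrays, and its log2 difference of 2.18 (SE 0.52) had an adjusted p of 0.0661. With the slide as a block it passed (adjusted p = 0.0374), which makes 4 called genes, and over its other settings the adjusted p ran from 0.00129 to 0.594. Mcpt2, a mucosal mast cell chymase, read 6.10%, 3.70% and 6.97% against 2.61%, 1.41% and 2.76% and did not pass (1.32, SE 0.67, adjusted p = 0.766). Its null arrays were all above background, and 1 of the WT arrays was. The related Mcpt1 read 0.508% to 0.725% in null arrays, all below background. Together 6 of the 10 genes had no overlap between groups with the null arrays higher (Fcer1a, Cma1, Mcpt2, Mcpt4, Cpa3 and Tpsb2), where 8.45% of all features did.

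Kit, the receptor on which mast cells depend and which melanocytes and germ cells also carry, read 102.9%, 67.5% and 47.4% in null arrays and 104.9%, 75.1% and 71.2% in WT arrays. Hdc, which makes histamine from histidine and is used by several other cell types, read 85.3%, 100.1% and 72.3% against 116.8%, 124.8% and 88.6%. Both overlapped between groups, with log2 differences of -0.26 (SE 0.32) for Kit and -0.36 (SE 0.30) for Hdc and an adjusted p of 1 for each. The plot of null minus WT differences shows these genes near 0 beside the proteases.

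The calls in castrated males rested on few arrays. Without castrated WT array 3 or castrated null array 3, 0 of the genes were called, and without castrated WT array 2 or castrated null array 1, 1 was called. Over the 6 fits that each left out 1 array, adjusted p ran from 0.0133 to 0.0615 for Fcer1a, from 0.049 to 0.109 for Mcpt4, from 0.0163 to 0.202 for Cpa3 and from 0.00822 to 0.0515 for Tpsb2 probe 2, which lost its call only without castrated WT array 2. The call of Cpa3 was also lost on the deposited values, without the filter on dim probes and without slide 4, and weighting arrays by their spread gave 5 called genes. For the counts of called genes under left-out arrays or weights, the number of all features called is not given here. Without the 9 arrays of mixed sex signal, which leaves castrated null array 3 alone in its group and assumes that it varies like the other groups, the log2 differences were 3.61 for Fcer1a, 2.55 for Mcpt4, 2.18 for Cpa3 and 2.63 for Tpsb2 probe 2, and none passed (adjusted p = 0.102, 0.395, 0.251 and 0.159). That array had Xist at 4.15% of the female null sham level, still well above background, and the highest Fcer1a, Cpa3 and Mcpt4 of all 24.

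**Figure D2:**
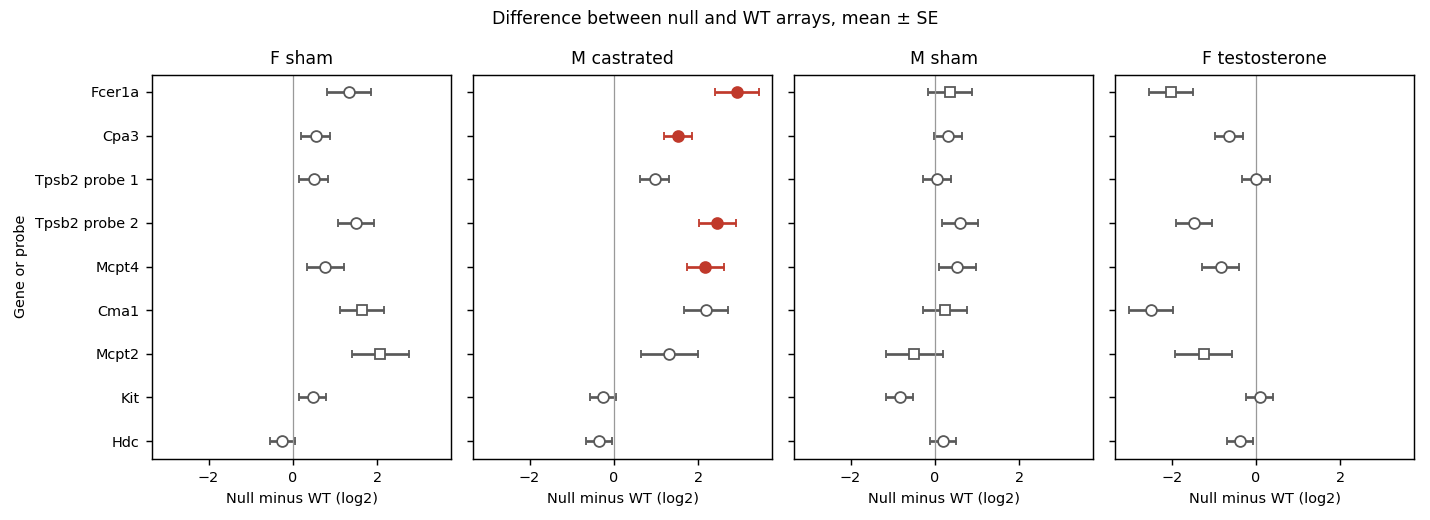
Null minus WT difference of 9 mast cell probes (log2, mean and SE from limma with 3 arrays a group) in sham females, castrated males, sham males and females given testosterone; filled red points passed at an adjusted p under 0.05, and squares mark comparisons in which a group had no array above background. In castrated males Fcer1a, Cpa3, Tpsb2 probe 2 and Mcpt4 passed, from 1.52 to 2.91, and in the other panels no probe did.

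In sham females, the other low-androgen setting, no mast cell gene was called between null and WT glands by limma, and 3 were higher at an unadjusted p under 0.05 (Fcer1a, Cma1 and Mcpt2). Of all features, 0.486% were called and 5.28% were higher at that unadjusted p. The median log2 difference of the 10 genes was 0.51, against -0.02 for all features. The median of the 10 centred genes on each array differed between null and WT arrays by 0.776 and 0.865 within slides 1 and 2. Cma1 had levels of 8.05%, 11% and 4.93% in null arrays, and its WT arrays, at 2.35%, 2.63% and 2.36%, were all not well above background. It was at least 3.05-fold higher, taking for each WT array the lowest signal well above background where the probe's own was lower (adjusted p = 0.222). Mcpt2 read 3.98%, 5.05% and 0.815% against 0.691%, 0.628% and 0.505%, at least 1.07-fold higher on the same basis (adjusted p = 0.233). Null arrays lay above WT arrays without overlap for these 2 of 10 genes, where 6.31% of all features did so, and also for Tpsb2 probe 2. For Mcpt2, null array 3 and the WT arrays were all not well above background, so their order has no meaning.

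Female null sham array 3 stood apart from its group in several members. Fcer1a read 6.55%, 8.36% and 2.96% in null arrays 1 to 3 and 2.07%, 1.52% and 3.27% in WT arrays (fitted 1.33, SE 0.52, adjusted p = 0.375). Of these, null arrays 1 and 2 and WT array 3 were well above background. Cpa3 read 35.6%, 32.2% and 15.5% against 20.1%, 15.8% and 18.4% (0.54, SE 0.33, adjusted p = 0.691). In each, arrays 1 and 2 were above every WT array and array 3 was not. Mcpt4 had the same order, with 33.9%, 34.9% and 13.3% against 12.8%, 12.2% and 20.4% (0.77, SE 0.44, adjusted p = 0.645). Leaving that array out raised the median of the 10 genes to 0.784. The adipocyte gene Retn was also lowest there, at 600.6% against 3376% and 4506% in null arrays 1 and 2 and 6713% to 11935% in WT arrays, and its part in these values was not tested. The WT arrays with Y-linked signal, 2 and 3, held both the lowest and the highest Fcer1a of their group.

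Tpsb2 probe 2 read 10.9%, 14.9% and 8.78% in female null sham arrays and 3.20%, 3.26% and 6.13% in WT arrays, all above background, with a log2 difference of 1.49 (SE 0.43, adjusted p = 0.16). Probe 1 of the gene differed by 0.49 (SE 0.34, adjusted p = 0.743). Kit stood at 73.6%, 75.5% and 50.05% against 39.0%, 52.1% and 52.0% (0.47, SE 0.32, adjusted p = 0.739), and Hdc at 122%, 104.6% and 85.4% against 146.6%, 140.9% and 88.7% (-0.25, SE 0.30, adjusted p = 0.895). Both ranges overlapped, and Hdc was the one tested member with a difference below 0.

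Averaging the null effect over sham females and castrated males, which draws on 12 arrays, called 4 of the 10 genes higher and 0 lower, where 2.41% of all features were called and 1.3% called higher. These were the IgE receptor subunit Fcer1a (2.12, SE 0.37, adjusted p = 0.0032, with 2 of its 6 WT arrays above background), Mcpt4 (1.47, SE 0.31, adjusted p = 0.0129), Cpa3 (1.03, SE 0.24, adjusted p = 0.0224) and Cma1 (adjusted p = 0.00694), for which no size is given because female WT sham arrays were below background. Tpsb2 probe 2 also passed (1.97, SE 0.30, adjusted p = 0.00105, with 2.36% of features called when every probe is tested). Mcpt2 did not (adjusted p = 0.0717), nor did Tpsb2 probe 1 (0.73, SE 0.24, adjusted p = 0.146), Kit (0.10, SE 0.22, adjusted p = 0.962) or Hdc (-0.30, SE 0.21, adjusted p = 0.695). The average shares its arrays with both comparisons above and adds no arrays to them.

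Fcer1a, Cma1, Mcpt4 and Tpsb2 probe 2 kept this call in each of the 12 fits that left out 1 array, with adjusted p of at most 0.0122, 0.0234, 0.0428 and 0.00447. Cpa3 lost it in 7, those without castrated WT array 2 or 3, castrated null array 1 or 3, female WT sham array 2 or female null sham array 1 or 2 (adjusted p from 0.053 to 0.0733; 0.00481 to 0.0733 over all 12). The deposited values also ended its call. Without the 9 arrays of mixed sex signal no member was called (46 of all features were, against 747), while the median difference was 1.1 against 0.88, and the adjusted p was 0.076 for Fcer1a and 0.0704 for Tpsb2 probe 2.

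In the high-androgen settings no member passed between null and WT glands. Between sham males 0 of 10 were called by limma, where 0.0837% of all features were, and Kit alone had an unadjusted p under 0.05 (lower, as in 2.24% of all features). Kit read 48.4%, 54.4% and 55.0% in null arrays and 117.2%, 127.5% and 55.3% in WT arrays, so that WT array 3 lay close to the null arrays and the others well above (-0.84, SE 0.32, adjusted p = 0.999). WT array 3 was also one of the arrays with high Alb. The median of the 10 genes was 0.12. Fcer1a was below background in all 6 arrays, at 0.358% to 1.31%. Cpa3 read 15.7%, 16.5% and 22.4% in null arrays against 12.1%, 15.7% and 16.3%. In Mcpt4, null array 3 stood out with 33.8%, against 12.9% and 13.4% in null arrays 1 and 2 and 10.1% to 16.1% in WT arrays. The same array had the highest Cma1 and Tpsb2 probe 2 of the 6, and its Xist signal, 6.08%, was the lowest of its group.

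Females given testosterone had lower mast cell values in null than in WT glands, but no member passed. By limma 0 of 10 were called, where 0.0354% of all features were, with 2 lower at an unadjusted p under 0.05 (Fcer1a and Cma1), as 4.76% of all features were, and a median of -0.51. Fcer1a read 1.37%, 1.87% and 0.973% in null arrays, none above background, and 7.01%, 2.81% and 8.39% in WT arrays. Null arrays were thus at least 2.45-fold lower (adjusted p = 0.197). Cma1 read 2.13%, 0.64% and 1.23% against 8.56%, 4.57% and 7.64% (fitted -2.49, SE 0.52, adjusted p = 0.116), with 1 of 3 null arrays above background. Cpa3, at 20.6%, 20.5% and 11.5% against 29.5%, 24.1% and 25.7%, also had no overlap (-0.64, SE 0.33, adjusted p = 0.686). Null array 1 had the highest Alb of all arrays. All 3 WT arrays here carried Y-linked signal at 19.2% to 36.0% of the male level and raised Abhd1, and their part in these differences was not tested. Their levels of Fcer1a, Cma1 and Tpsb2 probe 2 (12.5%, 5.32% and 12.03% for the last) overlapped those of female null sham arrays.

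Averaged over both high-androgen settings, 0 members were called by limma, where 0.113% of all features were, with Fcer1a (adjusted p = 0.638) and Cma1 (adjusted p = 0.394) lower at an unadjusted p under 0.05, as 4.2% of all features were. The median was -0.28, and it was -0.14 without male WT sham array 2, -0.43 without male WT sham array 3 and -0.093 on the deposited values.

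The difference between the null effects at low and at high androgen was then tested directly, as an interaction over all 24 arrays. Fcer1a (adjusted p = 0.0119) and Cma1 (adjusted p = 0.00952) passed as more positive at low androgen, 2 of the 10 genes, where 0.377% of all features were called and 0.264% in that direction. No size is given for either, since some of the groups were at background. Tpsb2 probe 2 passed too, by 2.41 (SE 0.43, adjusted p = 0.0129, with 0.364% called when every probe is tested). Mcpt4 (1.62, SE 0.44, adjusted p = 0.17) and Cpa3 (1.19, SE 0.33, adjusted p = 0.194) did not, nor did Mcpt2 (adjusted p = 0.148), Kit (0.48, adjusted p = 1) or Hdc (-0.21, adjusted p = 1).

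These 3 interactions kept their call in all 24 fits without 1 array, but not in each sex alone. Within males alone, castrated against sham, 0 members were called (adjusted p = 0.463 for Fcer1a, 0.922 for Cma1 and 0.654 for Tpsb2 probe 2), and within females 1 was called, Cma1 (adjusted p = 0.0314). Of all features, 25 were called within males and 30 within females. The size for Tpsb2 probe 2 was 1.86 within males and 2.97 within females. Over all alternatives the adjusted p of Fcer1a ran from 0.000696 to 0.463 and that of Cma1 from 0.000867 to 0.922. All 3 female WT testosterone arrays carried Y-linked signal, at 19.2% to 36.0% of the male level, and raised Abhd1. Leaving out 1 array at a time does not remove this signal. Without all of them the group is empty, so neither the full interaction nor that within females could be refitted. The part of this signal in the interaction was not tested.

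Castration itself was compared within each genotype. In WT males 0 members were called by limma, where 0.599% of all features were, and 4 were higher at an unadjusted p under 0.05 (Fcer1a, Cma1, Mcpt2 and Cpa3), as 3.2% of all features were, with a median of 0.40. Cpa3 lay above all sham arrays in all castrated WT arrays (0.72, SE 0.33, adjusted p = 0.784). Fcer1a, at most 0.607% and below background in WT sham males, was at least 1.04-fold higher (adjusted p = 0.0804).

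In null males castration raised 4 of the 10 genes and lowered 0, where 1% of all features were called and 0.425% called higher, and the median was 1.5. Fcer1a was at least 9.30-fold higher (adjusted p = 8.7e-05), from 0.46%, 0.451% and 1.31% in null sham arrays, all below background. Cma1 rose by 3.49 (SE 0.52, adjusted p = 0.00171), from levels of 1.42%, 0.752% and 3.27%, of which 1 of 3 was above background. Cpa3 rose by 1.94 (SE 0.33, adjusted p = 0.00501). Mcpt2, from 0.511%, 0.657% and 0.385% and below background, was at least 2.93-fold higher (adjusted p = 0.0144). For each of these, the castrated arrays were all above the sham arrays. Tpsb2 probe 2, from 1.51%, 3.38% and 4.10%, rose by 3.32 (SE 0.43, adjusted p = 0.000469, with 0.945% called when every probe is tested), while Mcpt4 (1.84, SE 0.44, adjusted p = 0.0524), Tpsb2 probe 1 (1.16, SE 0.34, adjusted p = 0.144), Kit (0.40, SE 0.32, adjusted p = 0.82) and Hdc (-0.24, SE 0.30, adjusted p = 0.942) did not pass. Both male comparisons that involve the castrated null arrays share those 3 arrays. The call of Mcpt2 was lost without null sham array 1 or 3 or castrated null array 1 or 3 (adjusted p from 0.0643 to 0.0844, and from 0.0311 over all 6). Without the 9 arrays of mixed sex signal, which leaves 1 array in each null male group, no member was called (12 of all features were, against 312), with differences of 2.66 for Cma1 and 2.27 for Cpa3 and an adjusted p of 0.138 for Fcer1a.

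Testosterone in null females lowered Cma1 alone, by 2.68 on the log2 scale (fitted, SE 0.52, adjusted p = 0.0395, with 1 of 3 testosterone arrays above background), 1 of the 10 genes where 0.209% of all features were called and 0.18% called lower. Without female null sham array 1 or 2 or female null testosterone array 2 or 3 the call was lost (adjusted p from 0.149 to 0.197, and from 0.0244 over all 6). Fcer1a was at least 2.43-fold lower (adjusted p = 0.197). Null sham array 3 and all 3 null testosterone arrays were not well above background for Fcer1a, so their order has no meaning. In WT females given testosterone 0 members were called by limma, where 0.0741% of all features were, and 3 were higher at an unadjusted p under 0.05 (Fcer1a, Cma1 and Mcpt2), as 2.83% of all features were, with a median of 0.47. The medians were -0.39 in null and 0.47 in WT females, the latter in arrays with Y-linked signal.

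Between the sexes, sham females had more Fcer1a signal than sham males in both genotypes. In WT glands it passed (adjusted p = 0.043), with no size given because male WT sham arrays were below background and 1 of 3 female arrays was above it, 1 of 10 genes where 2.01% of all features were called. This call was lost without any of the arrays except female WT sham array 2 (adjusted p from 0.0978 to 0.149, and from 0.0498 over all 6). It was also lost under 10 of 13 other settings, with adjusted p up to 0.474. In null glands Fcer1a was at least 2.96-fold higher in females (adjusted p = 0.00705) and Cma1 differed by a fitted 2.32 (SE 0.52, adjusted p = 0.0419, with 1 of 3 male arrays above background), 2 of 10 genes where 0.747% of all features were called. Tpsb2 probe 2 differed by 2.03 (SE 0.43, adjusted p = 0.0302, with 0.711% called when every probe is tested). Without male null sham array 1 the adjusted p was 0.0567 for Fcer1a, and Cma1 and Tpsb2 probe 2 lost their call without any array except male null sham array 3 (Cma1 0.0578 to 0.196, and from 0.0184 over all 6; probe 2 0.0633 to 0.207, and from 0.0456). With normexp correction and quantile normalization, or with the authors' deposited values, neither Fcer1a nor Cma1 passed in either sex comparison. Both sex comparisons include arrays with signal of the other sex. Y-linked genes reached 25.4% and 45.5% of the male level in female WT sham arrays 2 and 3. Xist reached 19.5% and 18.3% of the female level in male null sham arrays 1 and 2. Without these arrays each of these groups holds 1 array, and the part of this signal in the sex differences was not tested.

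**Figure D3:**
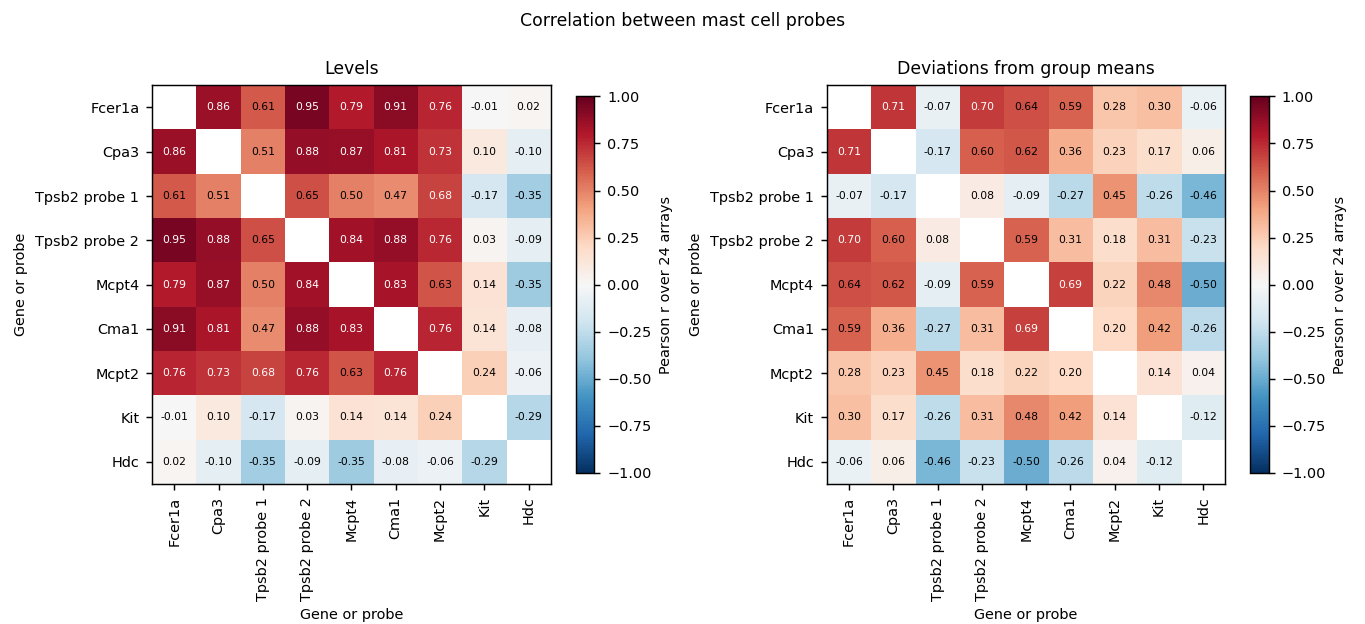
Pearson correlation between 9 mast cell probes over 24 arrays, on the levels (left) and after subtracting each group's mean (right). The proteases and Fcer1a form a block of high values on the left, from 0.471 to 0.95, apart from Kit and Hdc.

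Fcer1a and the 6 protease probes varied together over the 24 arrays. Among their 21 pairs Pearson's r on the log2 levels had a median of 0.762, from 0.471 to 0.95, the highest between Fcer1a and Tpsb2 probe 2. With group means removed the median was 0.305, from -0.266 to 0.712, and the pair of Fcer1a and Cpa3 was highest. Tpsb2 probe 1 was the exception, at r = 0.08 with probe 2 of its own gene after group means were removed. Kit had a median r of 0.097 and Hdc one of -0.091 with the 7 probes on the levels. With group means removed, the median was 0.300 for Kit, close to that among the 7 probes, and -0.226 for Hdc. The arrays share 8 groups, 4 slides and one scaling, and these values are a description.

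Few other mast cell genes outside the 10 were called. Of 21 listed, 17 were tested, and their median null minus WT difference was -0.01 in castrated males. Tph1, the enzyme that starts serotonin synthesis and is made in mouse mast cells, was the gene of that list called there. It read 9.21%, 4.32% and 5.42% in castrated null arrays and 1.81%, 0.575% and 0.666% in castrated WT arrays, the latter below background, and was at least 2.72-fold higher (adjusted p = 0.0161). Leaving out castrated WT array 2 or 3 or castrated null array 1 or 3 ended this call (adjusted p from 0.0514 to 0.112, and from 0.0102 over all 6). It also passed in the low-androgen average (adjusted p = 0.0051), in the interaction (adjusted p = 0.0175) and in castrated against sham null males (at least 3.25-fold, adjusted p = 0.00639). Like Fcer1a, Tph1 passed the filter through groups where it was high. It was above background in 3 castrated null, 2 female null sham and 1 female WT testosterone arrays. Without the 9 arrays of mixed sex signal, castrated null array 3 is alone in its group. Its calls other than the interaction, which could not be refitted, were then lost. In female null sham arrays Tph1 read 2.94%, 3.32% and 0.80% against 0.531% to 1.06% in WT arrays (adjusted p = 0.383).

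Il1rl1, the receptor for interleukin-33, which is carried by mast cells, read 26.3%, 19.1% and 30.2% in castrated null arrays and 15.5%, 11.1% and 13.7% in castrated WT arrays. The groups did not overlap, but the difference did not pass (0.89, SE 0.29, adjusted p = 0.279). Against null sham males, at 11.3%, 7.02% and 12.4%, it rose by 1.32 (SE 0.29, adjusted p = 0.0309). The regulators Gata2 (0.02, SE 0.28) and Gata1 (-0.15, SE 0.59) had an adjusted p of 1 between castrated null and WT males, and so had the mast cell transcription factor Mitf (-0.10, SE 0.22). Between castrated and sham null males Gata1 differed by -2.37 (SE 0.59, adjusted p = 0.0665). That did not pass and was opposite in direction to Tph1 and Il1rl1.

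**Figure D4:**
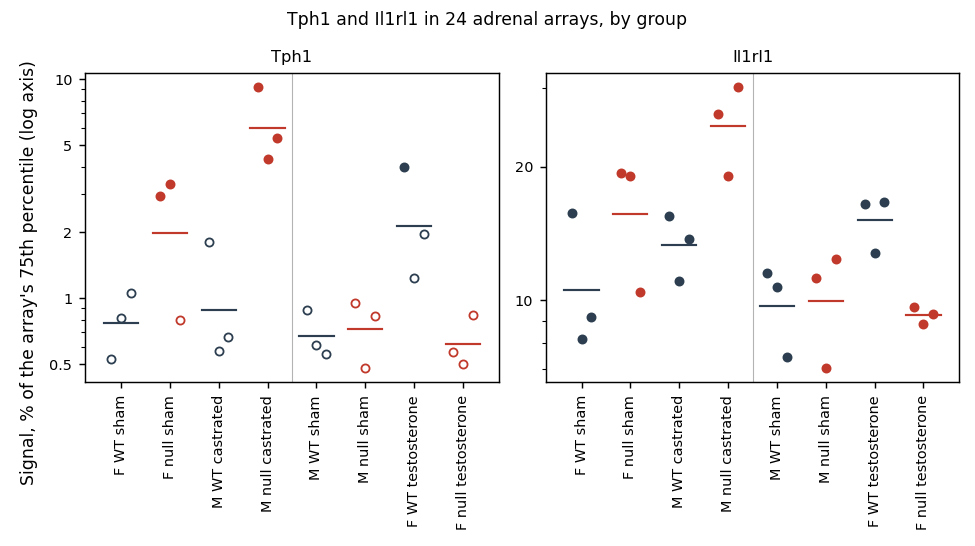
Signal of Tph1 and Il1rl1 on 24 arrays, as a percent of each array's 75th percentile on log axes; red is null, dark is WT, open points are not well above background and bars are group means of the log2 values. Both were highest in castrated null males, at 4.32% to 9.21% for Tph1 and 19.1% to 30.2% for Il1rl1.

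Tph1 and Il1rl1 were also the genes whose pattern was most like that of the mast cell genes. Likeness was measured as Pearson's r over 24 arrays with the mean of the 8 members that passed the filter, each centred on its own mean. Members and predicted or clone symbols were left out of the list, so that Dkk3 ranked 7 and Heph 16 among all features. Tph1 came first at 0.928 and Il1rl1 next at 0.92, followed by Dkk3 (0.896), Dok7 (0.891), Hs6st2 (0.876), Npy1r (0.874), Obp2a (0.873) and Heph (0.868). After group means were removed, Heph (0.81), Tph1 (0.788) and Il1rl1 (0.768) led, followed by Emilin3, Aldh3b2, Luzp2, Slc13a4 and Kcne4 at 0.705 to 0.732.

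Signals that feed mast cells and the relay below the IgE receptor showed no call between null and WT glands. Of 14 growth and recruitment genes 9 were tested, with a median of 0.31 in castrated males. Kitl, which encodes stem cell factor, the ligand of Kit, read 109.9%, 81.3% and 65.8% in castrated null arrays and 68.1%, 59.2% and 41.4% in castrated WT arrays (0.61, SE 0.40, adjusted p = 0.97). The chemokine gene Cxcl12 differed by 0.58 (SE 0.21, adjusted p = 0.422). All 12 IgE receptor signalling genes were tested, with a median of 0.22, and Inpp5d, a phosphatase that restrains the receptor, had the smallest p (0.39, SE 0.21, adjusted p = 0.805). Of 13 genes of histamine and serotonin handling 10 were tested and 0 were called in castrated males (median -0.23), with Maoa, which breaks down serotonin, at -0.72 (SE 0.30, adjusted p = 0.566). The serotonin receptor Htr2b rose in castrated against sham null males (2.26, SE 0.47, adjusted p = 0.0212).

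Markers of other cells were set beside the castrated null result. Of 5 basophil genes, which share the IgE receptor with mast cells, 2 were tested, Prss34 and Il3ra, and neither was called; the defining basophil protease Mcpt8 did not pass the background filter. Their summed level was 302.6% to 444.6% in castrated null and 239% to 263.3% in castrated WT arrays, without overlap. The summed level of 8 macrophage and leukocyte genes was 2321% to 2835% in castrated null and 2192% to 2346% in castrated WT arrays, with a median difference of 0.03. Melanocyte genes, which could share Kit, summed to 22.6% to 32.7% against 32.0% to 37.9%. Neutrophil and eosinophil genes had a median of 1.60 over 4 tested and red blood cell genes 1.66 over 5 tested, with no gene called. The neutrophil sum overlapped between groups (222.1% to 3083% against 105.5% to 1390%), while the red cell sum did not (71659% to 95729% against 27695% to 44043%). Capsule and connective tissue genes had a median of 0.20 over 7 tested, and Gli1, a hedgehog target made in capsule cells, differed by 1.59 (SE 0.36, adjusted p = 0.0504) and passed in the low-androgen average (1.51, SE 0.26, adjusted p = 0.0026), in the interaction (1.84, adjusted p = 0.027) and in castrated against sham null males (1.86, adjusted p = 0.014). Adipocyte genes had a median of -0.11 over 8 tested, with overlapping sums (78810% to 101494% against 80386% to 94791%), and Retn was called lower in the low-androgen average (-1.57, SE 0.35, adjusted p = 0.0198). After group means were removed, Retn had r = 0.65, Cfd 0.57 and Fabp4 0.54 with the mast cell profile. Lymphocyte genes had a median of -0.04 over 6 tested, liver and kidney genes -0.30 over 7 and adrenal cortex and medulla genes -0.03 over 11, with 0 called by limma in castrated males and, at an unadjusted p under 0.05, Lrp2, Star and Mc2r. The part of these lists in the mast cell results was not tested.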

How the data were processed

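RNA of 24 adrenal samples was measured on one-colour Agilent arrays with Cy3. Spot intensities, per the file headers, come from Feature Extraction 10.7.3.1, and include a processed signal with background already subtracted, not scaled between arrays. The authors' deposited value table holds log2 values. Their median, 6.33 to 6.34 on every array, and their correlation with the log2 mean signal (at least 0.998) show a quantile-like scaling without background subtraction, while the exact steps are not given in the sources used here.

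The processed signal was taken as log2 minus each array's 75th percentile of non-control spots. Outlier spots, 160 to 283 on each array, were dropped, and replicate spots were averaged by probe. Probes well above background on at least 3 arrays were kept, and 1 probe per gene symbol, the one with the highest mean, was used, with Tpsb2 probe 2 read from a fit on all 36830 probes. In all, 57.0% to 64.7% of spots were well above background, which limits the precision of dim probes. No spot was saturated. limma 3.58.1 (R 4.3.3) was fitted on the 8 groups with 3 arrays each, for 13 comparisons, with Benjamini-Hochberg adjustment over 31046 features. The script was tested on simulated data. Arrays correlated at 0.932 to 0.991, so none was a copy of another.

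Members, lists and the sets of arrays left out were chosen with earlier results of these data known. All 10 members are named whatever their values. Of other lists, described for null against WT, the interaction and castration of null males, called genes were named, at most 4 by smallest adjusted p, and otherwise some of the smallest p or genes that a member's role calls for, which were Kitl, Gata1, Gata2 and Mitf. The replicate numbers follow the slides closely, and same-numbered arrays deviated together in most pairs (84 pairs, mean r 0.226, from -0.353 to 0.685, 68 over 0.1). The main fits used no block all the same, so this shared part stayed in their spread. With the replicate number or the slide as a block, 325 or 376 features were called in castrated males, against 217 without. Promoter sequences are from RefSeq.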

Additional observations from a re-analysis of the deposited data

Results flagged for a closer look

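Fcer1a, Cma1, Tpsb2 probe 2 and Tph1 differed between settings in how null and WT glands compared. The test was the interaction of the null effect at low androgen (sham females and castrated males) with that at high androgen (sham males and females given testosterone) in limma. Its adjusted p was 0.0119 for Fcer1a, 0.00952 for Cma1, 0.0129 for Tpsb2 probe 2 and 0.0175 for Tph1. Within males alone none of the 4 passed, and within females Cma1 alone did. Every female WT testosterone array carried Y-linked signal, and without that group neither the full interaction nor that within females can be fitted. With normexp correction and quantile normalization the adjusted p of Tph1 was 0.117, and it ran from 0.00149 to 0.463 over all alternatives.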

How the results depend on the processing

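Direction and side of the threshold were recomputed under each alternative and by leaving out each array. Several counts of members below, such as those with array weights or left-out arrays, are given without the number of all features called. Such counts cannot be set against a change in all features. Of single-gene results 1111 kept both, 106 lost their call, 19 gained one and 4 changed sign, all 4 small differences of Kit and Hdc. Kit in castrated males was 0.015 without castrated null array 3 (range -0.54 to 0.015). In the low-androgen average it was -0.027 without the 9 arrays of mixed sex signal and -0.039 without castrated null array 1 (range -0.039 to 0.24). The interaction of Hdc within females was 0.13.

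With array weights, 2 members were called in sham females, 5 in castrated males, 1 in sham males, 1 in the high-androgen average, 5 in the interaction, 1 for castration of WT males, 2 for testosterone in null females and 5 between null sexes. Without the 9 arrays, 0 were called in castrated males, the low-androgen average, castration of null males, testosterone in null females and both sex comparisons, and medians were 1.41 (castrated males), -0.13 (sham males) and 0.025 (WT sexes). This leaves 1 array in each null male group and 1 in female WT sham, each assumed to vary like the others, and 0 in female WT testosterone. Neither null female group holds any of the 9, so Cma1 under testosterone kept its difference of -2.68 and had an adjusted p of 0.133.

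Medians shrank with quantile scaling. With normexp they were 0.585 in castrated males, -0.265 in females given testosterone, 0.423 in the low-androgen average, 0.454 in the interaction, 0.763 for castration of null males, 0.213 for testosterone in WT females and 0.242 between null sexes. Without background subtraction they were, in the same order up to WT testosterone, 0.651, -0.269, 0.493, 0.52, 0.924 and 0.237. In the deposited table they were 0.71, 0.508, 0.549, 1.01 and 0.231 for castrated males, the low-androgen average, the interaction, castration of null males and testosterone in WT females. All 3 gave 0 calls between the sexes in WT and in null glands, and testosterone in null females had 0 on the deposited values.

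With probes above background on all 24 arrays only, fewer members could be tested: 2 were called in the low-androgen average, 0 in the interaction, 2 for castration of null males, and 0 for testosterone in null females and both sex comparisons. Without any filter, testosterone in null females and the WT sexes had 0 calls and the null sexes 1. With RIN as a covariate, testosterone in null females and the WT sexes had 0. Without slide 4 these had 0 as well, the null sexes 1, and the WT sexes a median of 0.022. Without the 2 arrays with liver transcripts the high-androgen median was -0.58. With the replicate number as a block, 1 member was called in females given testosterone, where the fit without it called 0. Of all features 47 were called there, against 11 without the block. In castrated males Cma1 passed (adjusted p = 0.0289), with 325 of all features called against 217. In the other comparisons, the count of called members was the same with this block as without it. Cma1 in castrated males passed in 7 of the 13 alternatives other than leaving out 1 array. Apart from the counts given in this section, no count of members moved by over 1.5 times. The interaction had 0 calls within males and 1 within females, where 25 and 30 of all features were called, an alternative added after seeing the data. The cause of these changes was not tested.

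Leaving out 1 array at a time, counts ran from 0 to 3 in castrated males, 0 to 1 for testosterone in null females, 0 to 1 between WT sexes and 0 to 2 between null sexes. Medians ran from 0.42 to 0.78 in sham females, 0.89 to 1.38 in castrated males, -0.14 to 0.11 in sham males, -0.67 to -0.32 for testosterone in null females, 0.022 to 0.39 between WT sexes and 0.41 to 0.78 between null sexes. Signal over background limits Ms4a2 and Mcpt1, on which nothing can be said beyond their being dim, and the sizes for Fcer1a, Cma1 and Mcpt2.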
